A study of Mus musculus with 30 samples.

Results

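The replication-dependent histone genes are the clustered genes from which dividing cells make the bulk of their histone protein. They were taken here as the protein-coding genes whose symbols begin with Hist1h, Hist2h, Hist3h or Hist4h, with the counts of all transcripts summed per gene. The GENCODE M21 annotation of the mouse genome (build GRCm38, the same coordinates as mm10) holds 67 such genes. The deposited transcripts were matched to 38031 genes in all, of which 14346 were tested. They comprise 6 linker histone H1 genes, 18 H2A, 18 H2B, 12 H3 and 13 H4 genes. The Hist1 cluster on chromosome 13 holds 54 of them, the Hist2 cluster on chromosome 3 holds 10, the Hist3 cluster on chromosome 11 holds 2, and Hist4h4 stands alone on chromosome 6.

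Of the 67 genes, 63 had transcripts in the table and 59 had counts high enough to test: 5 H1, 17 H2A, 15 H2B, 9 H3 and 13 H4 genes. The 4 genes without a row that could be matched were Hist1h2bh, Hist1h2bm, Hist1h3h and Hist1h3i, which were not analysed here. The 4 that were too low to test were Hist1h1t and Hist1h2ba, with 22 and 59 counts over all libraries, and Hist1h2aa and Hist2h3c1, both at 0. A tested gene had 298 (Hist3h2ba) to 63638 counts over the 30 libraries, with a median of 14066.

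The study set microglia without the kinase Lrrk2 against wild-type microglia, with and without an inflammatory stimulus or aggregated α-synuclein. All libraries came from primary microglia cultured from the brains of C57BL/6 mice at postnatal day 21. In Lrrk2-/- (KO) cells there were 4 libraries after lipopolysaccharide (LPS, a component of bacterial outer membranes sensed by Toll-like receptor signalling), 5 after α-synuclein fibrils (the aggregated form of a protein that accumulates in Parkinson's disease) and 6 controls. In wild-type (WT) cells there were 6 libraries after LPS, 4 after fibrils and 5 controls. The sources used here give no doses, incubation times, sex of the animals or kind of control treatment. The labels do not say that replicates came from separate cultures or animals, so a p-value here reflects the spread between samples alone, and that spread may be technical.

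Replication-dependent histone mRNAs are made when a cell copies its DNA and are destroyed when copying ends. Unlike other mRNAs they typically carry no poly(A) tail: the transcript is cut just after a conserved stem-loop, which the protein Slbp binds and which governs processing, translation and decay. Some annotated transcripts run further, as in Hist3h2a, which extends 1643 bases past the stem-loop. Which form of each mRNA was counted was not tested. The core histones H2A, H2B, H3 and H4 form the protein spool of the nucleosome, and H1 binds the linker DNA between spools.

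The libraries were made from ribosome-depleted total RNA, which keeps transcripts without a poly(A) tail. Library totals were 8936310 to 35677005 counts assigned to genes, with a median of 20432234. Lrrk2 lay between 0.732 and 4.68 counts per 1000000 (CPM) in KO libraries, and between 6.87 and 16.7 CPM in WT libraries, with no overlap of the genotypes within a treatment. The summed CPM of 10 microglia markers lay between 3237 and 5096 in all libraries. It was 4708 to 4939 in WT fibril libraries, above the 3298 to 4594 of WT controls. In bulk RNA, fewer cells of a kind and less RNA per cell cannot be told apart, and this holds for every result on histone genes.

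The stem-loop was visible in most of these genes. The motif searched had 16 bases. Its arms of 6 bases pair with each other, the first opening with G, G and any 2 bases before C and T, and its loop of 4 bases has T at places 1 and 3. It was found on the sense strand of an annotated transcript in 44 of the 63 genes with a transcript sequence. It was found in 15 of 45284 other protein-coding transcripts (0.033%). The arm read GGCTCT in 32 genes, which were all those of the families H1 (4), H2A (11), H2B (8) and H3 (9) that held the motif. In H4 it read GGCCCT in 10 genes and GGTCCT in 2. The sites of 8 genes on which the results turn are shown here from the GENCODE M21 transcripts, 5′ to 3′, with the stem-loop in capitals.
Hist1h1c: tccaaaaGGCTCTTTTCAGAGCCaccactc
Hist1h1e: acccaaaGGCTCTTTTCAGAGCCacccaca
Hist2h2aa1: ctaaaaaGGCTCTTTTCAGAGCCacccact
Hist3h2a: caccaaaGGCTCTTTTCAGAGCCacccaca
Hist1h2bk: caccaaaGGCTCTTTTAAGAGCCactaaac
Hist1h4j: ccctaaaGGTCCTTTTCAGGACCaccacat
Hist2h4: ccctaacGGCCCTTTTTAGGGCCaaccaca
Hist4h4: ccacaaaGGCCCTTTTCAGGGCCcacaaag
No match was found in the annotated transcripts of Hist1h1a, Hist1h1b, Hist1h2bc, Hist1h2bn or Hist2h3b, which says only that the motif is not in those annotated sequences.

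The promoters also differed by family. RefSeq promoters (GRCm38.p6, 250 bases before to 50 after the start) were matched for 61 genes and searched on both strands. The CCAAT box, a binding site of the factor NF-Y, was present in every matched H1, H2A, H2B and H3 promoter (6, 17, 16 and 10 genes) but in 3 of 12 H4 promoters, against 37.4% of all 32851 promoters. TATAAA was found in 57.4% of the histone promoters and 13.6% of all. By family it was in 4 of 6 H1, 11 of 17 H2A, 8 of 16 H2B, 4 of 10 H3 and 8 of 12 H4 promoters. The octamer ATTTGCAT was found in 7 of 17 H2A and 6 of 16 H2B promoters and in no matched H1, H3 or H4 promoter (1.7% of all). AAACACA, a motif of H1 promoters, was found in 5 of 6 H1, 2 of 17 H2A and 2 of 16 H2B promoters (7.2% of all). No matched H3 or H4 promoter held it. No motif contains another, though TATAAA and AAACACA can share bases at their ends. A promoter with and a promoter without the CCAAT box are shown because the box was in all H1 but few H4 promoters: Hist1h1e (chr13:23622509-23622808, minus strand), in which the H1 motif, the CCAAT box and the TATA box stand in capitals, in that order, and Hist1h4h (chr13:23530794-23531093, plus strand), in which none of the 4 motifs was found. In lacking TATAAA, Hist1h4h is unlike most H4 promoters.
Hist1h1e: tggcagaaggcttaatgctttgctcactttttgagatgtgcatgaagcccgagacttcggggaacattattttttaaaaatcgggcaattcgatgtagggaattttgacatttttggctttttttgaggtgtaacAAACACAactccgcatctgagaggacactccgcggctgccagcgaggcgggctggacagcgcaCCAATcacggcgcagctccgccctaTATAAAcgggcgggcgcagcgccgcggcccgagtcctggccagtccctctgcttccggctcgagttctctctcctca
Hist1h4h: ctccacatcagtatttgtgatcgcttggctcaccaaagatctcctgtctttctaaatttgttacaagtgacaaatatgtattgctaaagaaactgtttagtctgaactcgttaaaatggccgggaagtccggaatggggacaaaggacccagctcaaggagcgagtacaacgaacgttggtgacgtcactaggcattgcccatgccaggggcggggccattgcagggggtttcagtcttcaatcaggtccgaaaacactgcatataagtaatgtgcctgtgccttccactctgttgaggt

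Many of these genes are near-copies of each other, which limits how far a count belongs to 1 gene. The share of a gene's possible 100-base reads that occur in no other annotated transcript had a median of 99.2% in H1, 34.7% in H2A, 55.1% in H2B, 62.9% in H3 and 81.0% in H4. It was at least 80% in 18 of the 59 tested genes. The sources used here do not say how shared reads were divided in counting, so values of single H2A, H2B and H3 genes are less certain than those of the families. This holds for some H4 genes too, as 7 of the 13 reached 80%. Hist1h4m, Hist1h4n, Hist1h4k and Hist1h4h had 11.9%, 19.3%, 35.7% and 61.5%.

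Summed over all replication-dependent genes, histone mRNA was lowest after fibrils and highest in the controls. The sum was 1056, 821, 1024 and 1019 CPM in the 4 WT fibril libraries, against 2887, 3427, 1830, 2421 and 1653 CPM in the 5 WT controls. The 6 WT LPS libraries had a lowest of 856.5, a median of 1160 and a highest of 1576 CPM. No WT library of either treatment reached the lowest WT control.

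In KO cells the ranges overlapped. The sum was 958.5, 1036, 1543, 1174 and 542.6 CPM in the 5 KO fibril libraries, and 1467, 1297, 1211 and 1692 CPM in the 4 KO LPS libraries. The 6 KO controls had a lowest of 839.5, a median of 1409 and a highest of 3985 CPM. The highest of all 30 was KO control replicate 1, while the other KO controls reached 2251 CPM at most. KO fibril replicate 5 was the lowest of all. As group means, fibrils gave 980 ± 107 CPM in WT cells (SD, n = 4) and 1051 ± 362 in KO cells (SD, n = 5). LPS gave 1209 ± 239 in WT (SD, n = 6) and 1417 ± 212 in KO cells (SD, n = 4). The controls had 2444 ± 736 in WT (SD, n = 5) and 1879 ± 1127 in KO cells (SD, n = 6).

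**Figure D1:**
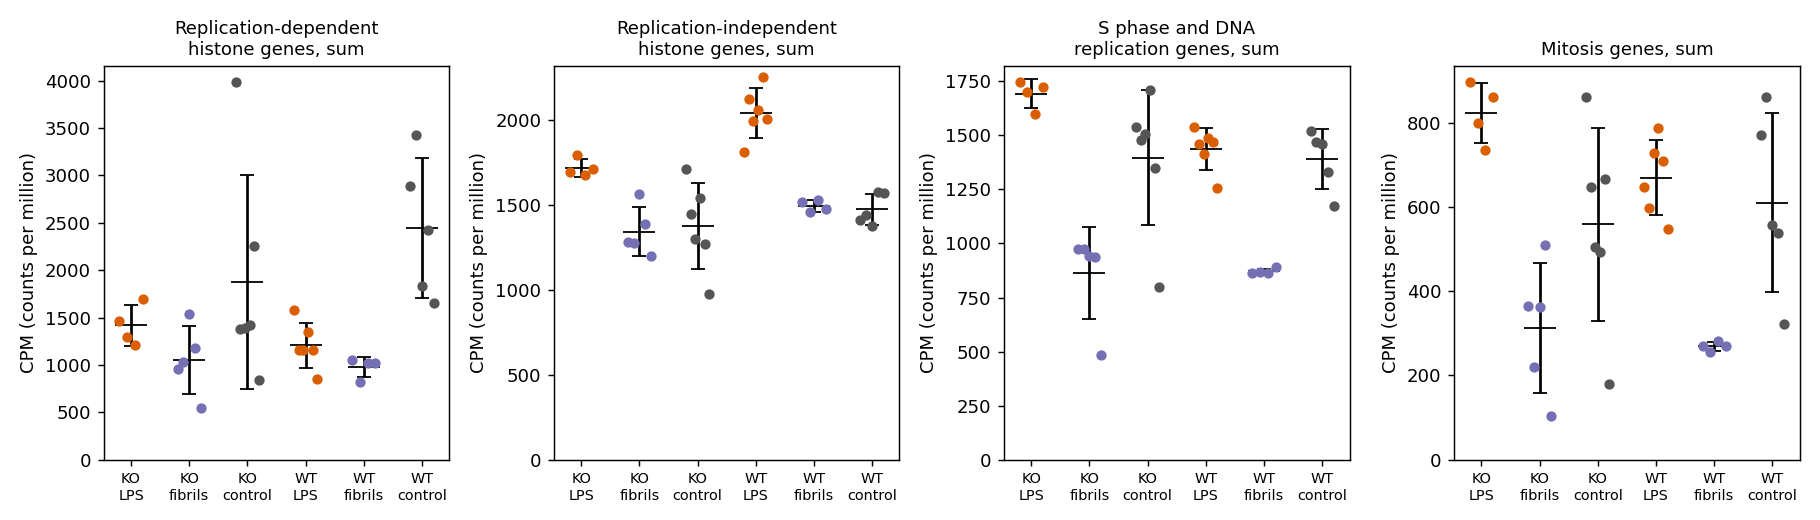
Summed CPM of the replication-dependent histone genes in each library, by group, with points for libraries and lines and bars for the mean ± SD. All WT fibril and WT LPS libraries lie below the lowest WT control (1653 CPM), whereas the KO groups overlap and KO control replicate 1 stands at 3985 CPM.

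With fibrils in WT microglia, 43 of the 59 tested genes fell and none rose, where 15.6% of all 14346 tested genes fell and 13.8% rose (edgeR quasi-likelihood test, adjusted p under 0.05 after Benjamini-Hochberg adjustment over all genes). The median log2 fold change was -1.51, against -0.05 over all genes, and 58 of the 59 values were below 0. Every fibril library lay below every control for 40 of the 59 genes, against 13.4% of all genes. All 5 H1 genes fell, as did all 9 H3 genes, 12 of 13 H4 genes, 11 of 15 H2B genes and 6 of 17 H2A genes.

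Non-microglial markers moved with this result. Of 27 tested astrocyte, oligodendrocyte, fibroblast and neuron markers, 17 were lower and none higher in WT fibril than in WT control libraries. The sum of the 30 listed markers was 77.1 to 88.8 CPM in WT fibril libraries, against 90.1 to 452 CPM in WT controls. In the WT fibril libraries 21 of the 30 markers stayed under 1 CPM throughout and the oligodendrocyte marker Mog was at 0, where 6 of 30 stayed under 1 CPM in the WT controls. WT control replicate 6, at 90.1 CPM of these markers, had 1653 CPM of histone mRNA, above every WT fibril library. It was also the lowest WT control in histone mRNA. WT LPS replicate 6, at 76.0 CPM of these markers, had the lowest histone sum of the WT LPS libraries. That sum, 856.5 CPM, lay within the range of the WT fibril libraries. The cause was not tested. With the mean level of these markers as a covariate, chosen after seeing the data, 13 histone genes were called instead of 43, and the median was -0.95 instead of -1.51.

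With fibrils in KO microglia, 17 of the 59 genes fell and none rose, against 11.5% of all genes falling and 12.2% rising (same test). All 59 values were below 0 and their median was -0.92, against -0.04 over all genes, but -0.49 without KO control replicate 1. Of the 2 genes whose fibril libraries all lay below all controls (3.41% of all genes), 1 was Hist1h2bc and 1 was Hist3h2a. The calls comprised 4 H1, 6 H2A, 3 H2B, 2 H3 and 2 H4 genes. This count rested on single libraries: it was 3 without KO control replicate 1, 8 without KO control replicate 5, 43 without KO control replicate 6, and 10, 29 and 7 without KO fibril replicates 2, 3 and 5. Without KO control replicate 1 the 14 genes other than Hist1h1c, Hist1h2bc and Hist3h2a lost their calls, with edgeR adjusted p of 0.0713 to 0.252. In KO fibril libraries the non-microglial markers summed to 146 to 477 CPM (mean 315), against 149 to 972 CPM (mean 476) in KO controls. Of the 27 tested markers 1, the oligodendrocyte-lineage marker Cspg4, was called lower than in KO controls. The WT and KO fibril comparisons share no libraries, and 14 genes were called in both, which is 32.6% of the WT list and 82.4% of the KO list. Of the 59 genes 72.9% were on the WT list and 28.8% on the KO list, so these shares are near those of the 59 genes as a whole.

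With LPS in WT cells, 29 of the 59 genes fell and none rose, against 8.03% of all genes falling and 7.1% rising, and the median was -1.10 against -0.02 over all genes. Every LPS library lay below every control for 19 genes, against 6.03% of all genes. The calls comprised 2 H1, 8 H2A, 6 H2B, 5 H3 and 8 H4 genes. The count was 17 without WT control replicate 1, 14 without WT control replicate 2 and 18 without WT LPS replicate 6. None of the 27 non-microglial markers was called. This comparison uses the same 5 WT controls as that with fibrils, so the calls are not independent of those with fibrils.

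With LPS in KO cells, 3 of the 59 genes fell and none rose. This share is no higher than the 7.35% of all genes that fell, and 6.36% of all genes rose. They were Hist3h2a, Hist2h4 and Hist4h4. The median was -0.47 against -0.04 over all genes, and 53 of the 59 values were below 0. That median rested on 1 library: it was -0.058 without KO control replicate 1. Of the 59 genes 13 (22%) had an unadjusted p under 0.05, where 25.1% of all genes did. For 2 genes, Hist3h2a and Hist2h2be, all LPS libraries lay below all controls, against 5.33% of all genes. The count was 5 without KO control replicate 6. Of the 27 non-microglial markers 1, the fibroblast marker Dcn, was lower.

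**Figure D2:**
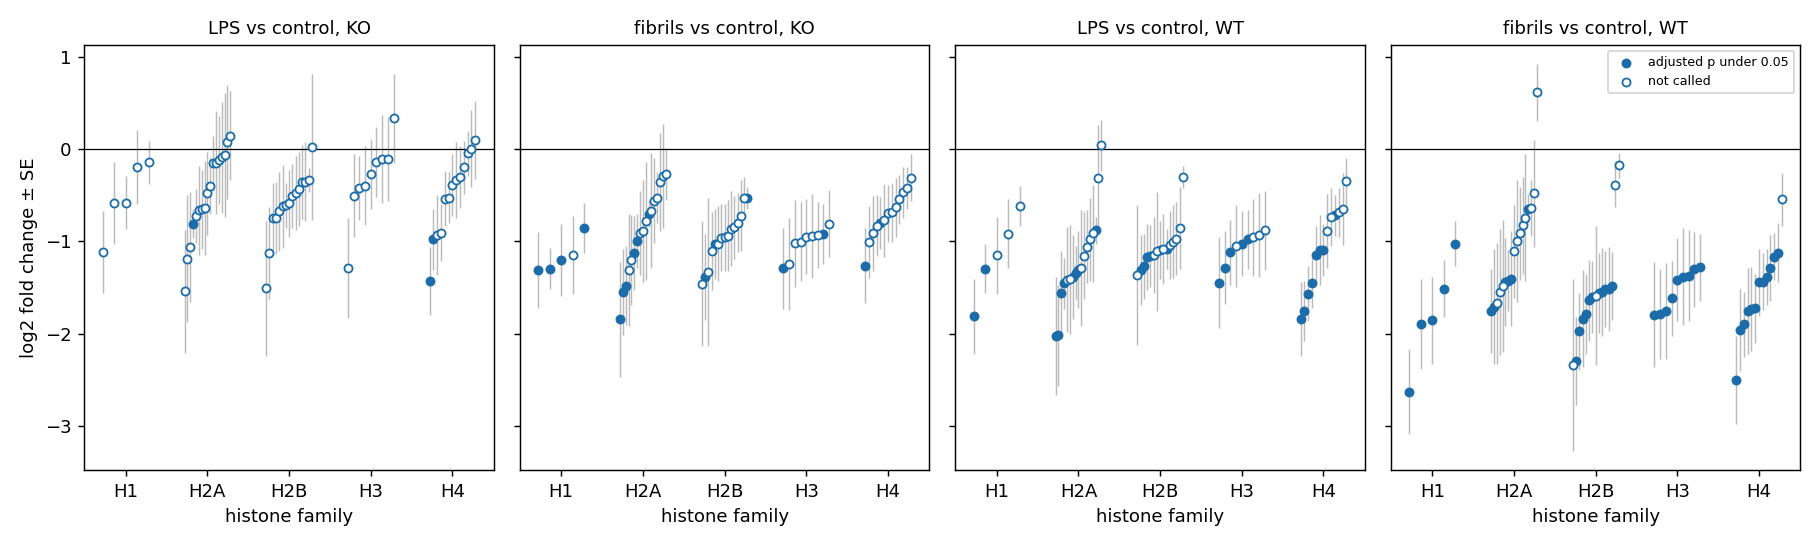
Log2 fold change of each tested replication-dependent histone gene in the 4 comparisons of a treatment with its control, by family. Nearly all values lie below 0, with medians of -1.51 (fibrils, WT), -0.92 (fibrils, KO), -1.10 (LPS, WT) and -0.47 (LPS, KO). Without KO control replicate 1 the KO medians are -0.49 (fibrils) and -0.058 (LPS).

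The H1 genes encode the linker histones. A level per length is given below as CPM per kilobase of annotated transcript, so a rank by it depends on where the annotation ends. Hist1h1c (ENSMUSG00000036181, chr13:23738808-23740367, plus strand), which encodes the subtype H1.2 and had the highest H1 level per length at 60.9 CPM per kilobase over all libraries, had 66.5, 54.6, 67.2 and 71.0 CPM in WT fibril libraries. WT controls had 157, 154, 94.6, 121 and 133 CPM. All fibril values lay under all control values, and the log2 fold change was -1.02 ± 0.25 (SE, edgeR adjusted p = 0.00307).

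In KO cells Hist1h1c had 45.8, 49.2, 61.1, 65.4 and 25.6 CPM after fibrils, and the KO controls had a lowest of 61.4, a median of 109 and a highest of 212 CPM. Only the lowest control, replicate 6, lay within the fibril range. The change was -1.30 ± 0.22 (SE, edgeR adjusted p = 0.000114). After LPS the log2 fold changes of Hist1h1c were -0.61 ± 0.22 in WT cells (edgeR adjusted p = 0.0554) and -0.14 ± 0.23 in KO cells (adjusted p = 0.772), neither past the threshold.

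Hist1h1e (ENSMUSG00000051627, chr13:23620629-23622558, minus strand) encodes the subtype H1.4, and its exons overlap those of Hist1h2be and Gm11398 on the same strand. It had 22.6, 17.8, 23.7 and 23 CPM in WT fibril libraries, and a lowest of 16.1, a median of 26.4 and a highest of 30.9 CPM in WT LPS libraries. WT controls had 86.3, 93.2, 44.6, 50.6 and 35.6 CPM. Both treatments lay below all WT controls. The changes were -1.51 ± 0.31 with fibrils (SE, edgeR adjusted p = 0.000708) and -1.29 ± 0.27 with LPS (adjusted p = 0.000786).

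In KO cells Hist1h1e had 24.3, 18.2, 30.5, 37.5 and 15.6 CPM after fibrils and 33.8, 29.7, 25.2 and 33.2 CPM after LPS, against a lowest of 26.2, a median of 36.2 and a highest of 81.5 CPM in controls. These ranges overlapped. Hist1h1e fell with fibrils (-0.85 ± 0.27, edgeR adjusted p = 0.0223), but not past the threshold without KO control replicate 1 (-0.60, adjusted p = 0.0881), KO control replicate 5 (-0.76, 0.0538), KO fibril replicate 2 (-0.75, 0.0594) or KO fibril replicate 5 (-0.72, 0.0685). With LPS its value was -0.58 ± 0.29 (adjusted p = 0.214).

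Hist1h1a, which encodes H1.1, had the largest fitted decrease of the 59 genes with fibrils in WT cells. It had 6.46, 5.92, 7.29 and 8.19 CPM in WT fibril libraries, against 65.9, 58.0, 31.4, 39.6 and 20 CPM in WT controls. The groups were far apart, and the change was -2.63 ± 0.46 (SE, edgeR adjusted p = 0.000156). In KO cells Hist1h1a had 18, 13, 20.7, 20.1 and 3.18 CPM after fibrils, against 9.82 to 71.0 CPM in controls. It fell by 1.20 on the log2 scale (SE 0.39, edgeR adjusted p = 0.0242), a call that was lost without KO control replicate 1 (adjusted p = 0.0955) or KO fibril replicate 5 (0.0563). Hist1h1b and Hist1h1d, which encode H1.5 and H1.3, fell with fibrils in WT cells by 1.89 and 1.86, and Hist1h1d fell with LPS in WT cells by 1.81 (edgeR adjusted p = 0.00194). Hist1h1d also fell with fibrils in KO cells by 1.31 (adjusted p = 0.0213), a call lost without KO control replicate 1 (-0.92, 0.09) or KO fibril replicate 5 (0.0595).

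**Figure D3:**
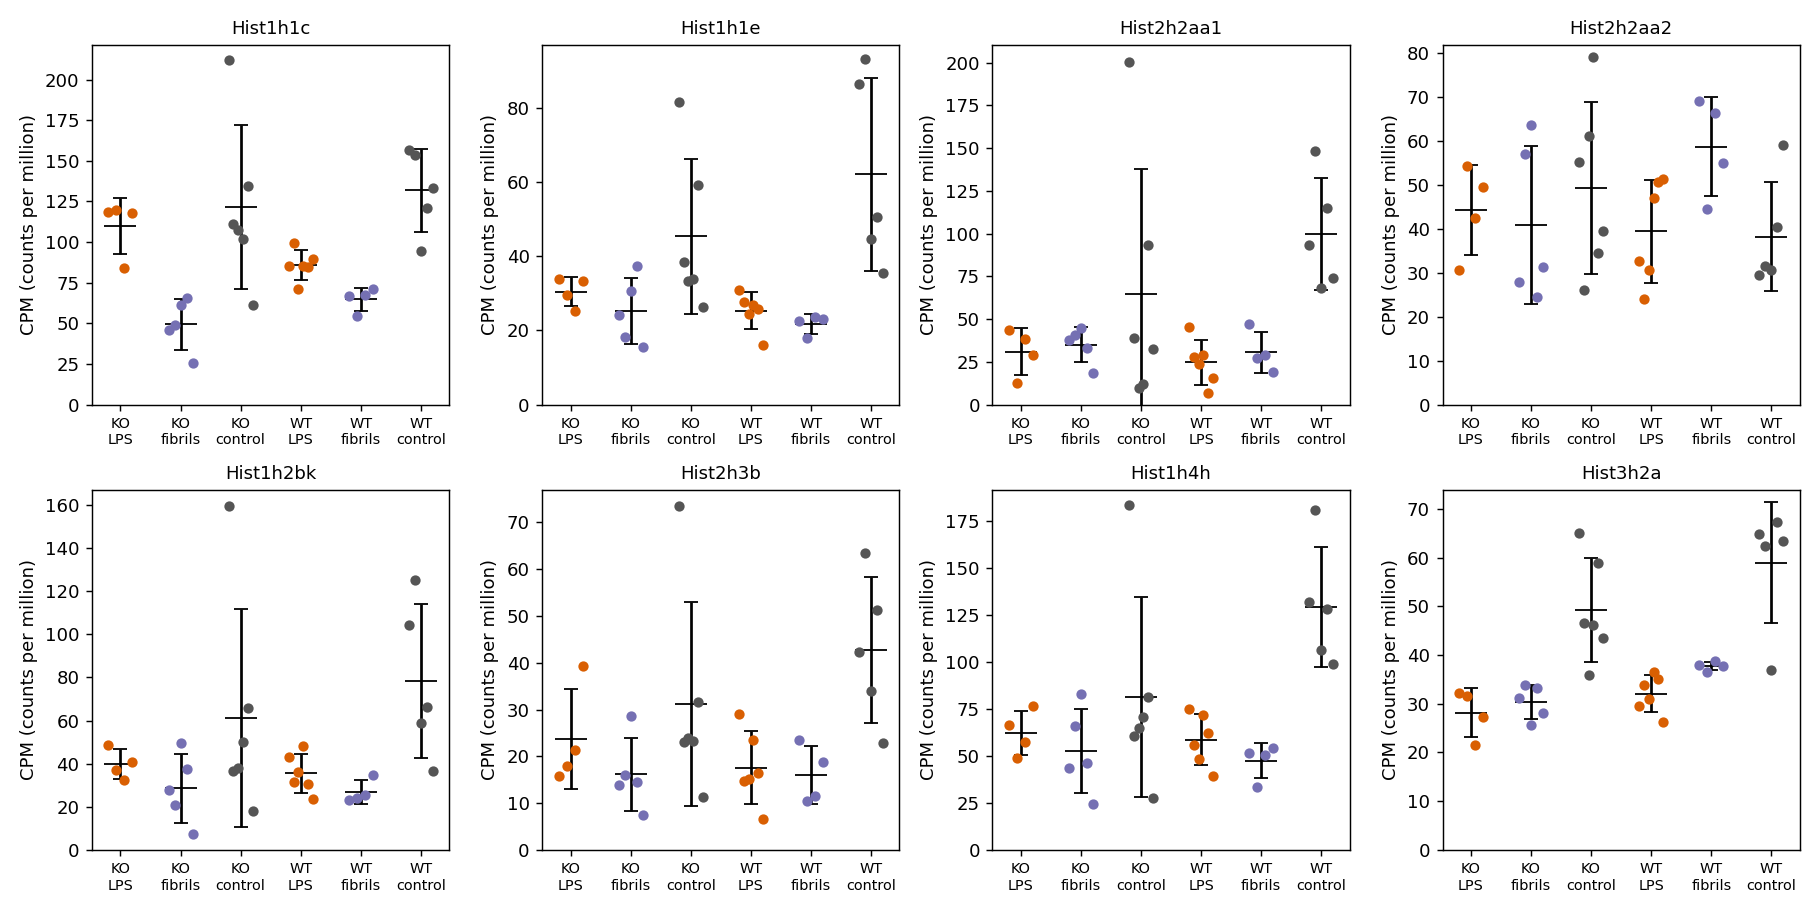
CPM of 8 replication-dependent histone genes in each library, by group, with points for libraries and lines and bars for the mean ± SD. Hist3h2a is lower after both treatments in both genotypes, Hist1h1c is lowest after fibrils, and Hist2h2aa2 is higher in WT fibril libraries on average (58.8 CPM) than in WT controls (38.2 CPM), opposite to its near-copy Hist2h2aa1.

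The H2A genes encode a core histone that pairs with H2B, and had the lowest share of calls with fibrils in WT cells. Hist3h2a (ENSMUSG00000078851, chr11:58954685-58956830, plus strand) was called in all 4 comparisons of a treatment with its control, the 1 gene of the 59 to be so. It had 38.0, 36.6, 38.7 and 37.8 CPM in WT fibril libraries, and a lowest of 26.4, a median of 32.4 and a highest of 36.6 CPM in WT LPS libraries. WT controls had 64.8, 62.5, 37.0, 67.3 and 63.5 CPM. WT control replicate 3 lay within the range of the fibril libraries, while no LPS library reached any control.

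In KO cells Hist3h2a had 31.1, 33.9, 25.6, 33.2 and 28.1 CPM after fibrils and 32.3, 31.7, 21.5 and 27.4 CPM after LPS, against a lowest of 35.8, a median of 46.4 and a highest of 65.0 CPM in controls. No KO library of either treatment reached the lowest KO control. The log2 fold changes were -0.64 ± 0.16 (fibrils, WT), -0.70 ± 0.14 (fibrils, KO), -0.88 ± 0.14 (LPS, WT) and -0.81 ± 0.16 (LPS, KO), with edgeR adjusted p of 0.00387, 0.000773, 3.82e-05 and 0.00047. Part of its annotated exons overlaps Trim17 on the same strand, and 70.2% of its possible reads were unique.

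Hist2h2aa1 (chr3:96245497-96246082, plus strand) and Hist2h2aa2 (chr3:96239749-96240276, minus strand) are near-identical genes of the Hist2 cluster that share the same stem-loop site, and 11.7% and 0% of their possible reads were unique, so the split of counts between them is uncertain. Hist2h2aa1 had 47.1, 27.2, 28.7 and 19.0 CPM in WT fibril libraries, against 93.2, 148, 68.2, 115 and 73.9 CPM in WT controls. Hist2h2aa2 had 69.1, 44.5, 66.4 and 55.0 CPM in WT fibril libraries, against 29.6, 31.4, 30.6, 40.3 and 59.2 CPM in WT controls. The first was lower in all fibril libraries, and the second overlapped.

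Hist2h2aa1 fell (-1.71 ± 0.63, edgeR adjusted p = 0.0413), though not past the threshold without WT control replicates 1, 2 or 5 (adjusted p = 0.0543, 0.0869 and 0.0594) or WT fibril replicates 2, 3 or 4 (0.0972, 0.0872 and 0.111). Hist2h2aa2 had a value of 0.62 ± 0.31 (adjusted p = 0.129), the 1 value of the 59 above 0. Their summed level was 89.3 ± 20.8 CPM in WT fibril libraries (SD, n = 4) and 138 ± 31.0 CPM in WT controls (SD, n = 5), and the ranges of the sums overlapped. With LPS in WT cells Hist2h2aa1 fell by 2.02 (SE 0.55, edgeR adjusted p = 0.0106) and Hist2h2aa2 had a value of 0.04 ± 0.28.

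Hist2h2ac, an H2A gene of the Hist2 cluster with 93.1% unique reads, fell with LPS in WT cells. It had a lowest of 7.78, a median of 9.20 and a highest of 13.8 CPM in WT LPS libraries, against 27.6, 37.0, 22.6, 26.4 and 24.4 CPM in WT controls. The change was -1.46 ± 0.27 (SE, edgeR adjusted p = 0.000262). With fibrils it had 19.2, 14.9, 19.4 and 17.4 CPM, all below the same controls, but its value of -0.64 ± 0.30 did not pass (adjusted p = 0.113). Hist1h2ac fell with fibrils by 1.42 in WT and 0.997 in KO cells and with LPS by 1.34 in WT cells (edgeR adjusted p = 0.00219, 0.0137 and 0.00124). The KO call was lost without KO control replicate 1 (-0.61, adjusted p = 0.0713).

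Other H2A genes called were Hist1h2ai, Hist1h2ak and Hist1h2ap with fibrils in WT cells, Hist1h2ag, Hist1h2ai, Hist1h2ak and Hist1h2ao with fibrils in KO cells, and Hist1h2ag, Hist1h2ai, Hist1h2an and Hist1h2ap with LPS in WT cells. H2A made up 21.8% ± 2.63 of the summed histone CPM in WT fibril libraries (SD, n = 4) and 16.6% ± 2.64 in WT controls (SD, n = 5), with overlapping ranges of 18.5 to 24.9% and 13.6 to 20.5%.

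The H2B genes encode the partner of H2A. Hist1h2bk (chr13:22035870-22036345, plus strand) had the highest H2B level per length, 96.7 CPM per kilobase over all libraries. It had 22.9, 24.0, 25.5 and 34.7 CPM in WT fibril libraries, against 104, 125, 58.9, 66.3 and 36.8 CPM in WT controls. The groups did not overlap, and the change was -1.55 ± 0.48 (SE, edgeR adjusted p = 0.0161). Of its possible reads 29.2% were unique, the rest being shared with annotated transcripts of other genes. Hist1h2bn had the largest fall of the called H2B genes with fibrils in WT cells, at -2.30 ± 0.47 (edgeR adjusted p = 0.000831). Hist1h2bb, Hist1h2be, Hist1h2bf, Hist1h2bg, Hist1h2bj, Hist1h2bl, Hist1h2bq, Hist1h2br and Hist2h2bb fell with fibrils in WT cells as well, by 1.48 to 1.98.

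Hist1h2bc was called with fibrils in KO cells and not in WT cells. It had 52.7, 64.6, 57.9, 67.0 and 61.0 CPM in KO fibril libraries, against a lowest of 71.6, a median of 77.9 and a highest of 118 CPM in KO controls. These groups did not overlap, and the change was -0.53 ± 0.12 (SE, edgeR adjusted p = 0.00223). In WT cells it had 75.0, 67.7, 83.6 and 71.7 CPM after fibrils, against 81.2, 86.7, 70.8, 88.7 and 92.1 CPM in controls, a value of -0.17 ± 0.13 (adjusted p = 0.352). The difference between these responses, KO minus WT, was -0.35 ± 0.18 and not past the threshold (edgeR adjusted p = 0.454). Hist1h2bl and Hist1h2bq were the other H2B genes called with fibrils in KO cells.

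Hist2h2be is a longer H2B gene with 100% unique reads. It had a lowest of 2.88, a median of 3.70 and a highest of 4.97 CPM in WT LPS libraries, against 8.12, 9.38, 6.47, 6.66 and 9.11 CPM in WT controls. All LPS values were lower, and the change was -1.08 ± 0.22 (SE, edgeR adjusted p = 0.000713). With fibrils it had 6.5, 6.43, 6.38 and 4.97 CPM, a value of -0.39 ± 0.24 (adjusted p = 0.241). Hist1h2be, Hist1h2bg, Hist1h2bj, Hist1h2br and Hist2h2bb were the other H2B genes that fell with LPS in WT cells.

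The H3 genes encode the core histone whose tail carries many regulatory marks. Hist2h3b had the highest H3 level per length (50.9 CPM per kilobase). It had 23.6, 10.5, 11.5 and 18.7 CPM in WT fibril libraries, against 42.3, 63.4, 34.0, 51.2 and 22.8 CPM in WT controls. The lowest control lay within the fibril range, and the change was -1.41 ± 0.45 (SE, edgeR adjusted p = 0.021). The call was lost without WT control replicate 2 (adjusted p = 0.0552) or WT fibril replicates 2 or 3 (0.0765 and 0.066). With LPS in WT cells it fell by 1.29 (adjusted p = 0.0253), a call lost without WT control replicates 2 or 5 (0.0883 and 0.0582) or WT LPS replicates 2, 3 or 6 (0.0543, 0.0518 and 0.0653).

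All of Hist1h3a, Hist1h3b, Hist1h3c, Hist1h3d, Hist1h3e, Hist1h3f, Hist1h3g and Hist2h3c2 also fell with fibrils in WT cells, by 1.28 to 1.80. In KO cells Hist1h3c (-1.29 ± 0.44, edgeR adjusted p = 0.0337) and Hist1h3d (-0.92 ± 0.33, adjusted p = 0.0429) were called with fibrils, and neither was without KO control replicate 1 (adjusted p = 0.167 and 0.168). Hist1h3d, Hist1h3e, Hist1h3f and Hist1h3g were the other H3 genes that fell with LPS in WT cells. No H3 gene had at least 80% unique reads.

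The H4 genes encode the partner of H3. Hist1h4h (chr13:23531050-23531519, plus strand) had the highest level per annotated length of all replication-dependent genes, 155.3 CPM per kilobase over all libraries. Hist1h4d had more CPM (98.5 against 73.0) over a longer annotated transcript (1138 against 470 bases), of which 770 bases follow the stem-loop. Hist1h4h had 51.4, 33.7, 50.6 and 54.4 CPM in WT fibril libraries, and a lowest of 39.3, a median of 58.8 and a highest of 75.0 CPM in WT LPS libraries. WT controls had 132, 181, 106, 128 and 99.0 CPM. Both treatments lay under all controls, with changes of -1.44 ± 0.36 with fibrils and -1.14 ± 0.31 with LPS (SE, edgeR adjusted p = 0.00394 and 0.0109).

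Hist1h4j (chr13:21735064-21735837, plus strand), with 81.0% unique reads, had the largest fall of the H4 genes. It had 5.66, 6.28, 4.68 and 6.24 CPM in WT fibril libraries, against 42.7, 50.1, 22.7, 36.8 and 10.3 CPM in WT controls. The changes were -2.51 ± 0.48 with fibrils (SE, edgeR adjusted p = 0.000394) and -1.84 ± 0.40 with LPS (adjusted p = 0.00146). In KO cells it fell with fibrils (-1.26 ± 0.41, adjusted p = 0.0246), a call lost without KO control replicates 1 or 5 (0.108 and 0.0554) or KO fibril replicates 1, 4 or 5 (0.0633, 0.0554 and 0.07).

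Hist2h4 (chr3:96261682-96263311, minus strand) had 100% and Hist4h4 (chr6:136801553-136804415, minus strand) 95.5% unique reads. Hist2h4 had 6.06, 5.52, 5.65 and 8.19 CPM in WT fibril libraries, against 19.8, 36.5, 15.8, 21 and 12 CPM in WT controls. Hist4h4 had 6.15, 4.42, 5.77 and 5.76 CPM in WT fibril libraries, against 23.8, 28.5, 14.1, 21.4 and 15 CPM in WT controls. Neither gene's groups overlapped. With fibrils in WT cells they fell by 1.73 and 1.90, and with LPS by 1.76 and 1.57 (edgeR adjusted p = 0.00137, 0.000282, 0.000257 and 0.000355).

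In KO cells Hist2h4 had 5.90, 5.42, 3.69 and 3.65 CPM after LPS, against a lowest of 5.54, a median of 8.62 and a highest of 32.5 CPM in controls. The highest LPS library lay within the control range. Hist2h4 fell by 1.43 (SE 0.37, edgeR adjusted p = 0.0081), and by 0.88 without KO control replicate 1 (adjusted p = 0.0269). Hist4h4 had 7.26, 5.97, 6.07 and 7.08 CPM after LPS, against a lowest of 5.94, a median of 9.01 and a highest of 31.7 CPM in KO controls, with overlap and a change of -0.98 ± 0.33 (adjusted p = 0.049). This call lies just inside the threshold and was lost in 26 of 43 alternatives, with adjusted p from 0.0173 to 0.217 over all of them. Without KO control replicate 1 the value of Hist4h4 was -0.49 (adjusted p = 0.209).

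Hist1h4i was the 1 H4 gene not called with fibrils in WT cells (-0.54 ± 0.29, adjusted p = 0.156). Hist1h4a, Hist1h4b, Hist1h4c, Hist1h4d, Hist1h4f, Hist1h4k, Hist1h4m and Hist1h4n were called there, with falls of 1.12 to 1.96, and Hist1h4n was called with fibrils in KO cells. Hist1h4d, Hist1h4f, Hist1h4m and Hist1h4n fell with LPS in WT cells.

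In all, 49 of the 59 genes were called in at least 1 comparison and 10 in none: Hist1h2ab, Hist1h2ad, Hist1h2ae, Hist1h2af, Hist1h2ah, Hist2h2aa2, Hist2h2ab, Hist1h2bp, Hist3h2ba and Hist1h4i. Of these 10, 7 belong to H2A.

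**Figure D4:**
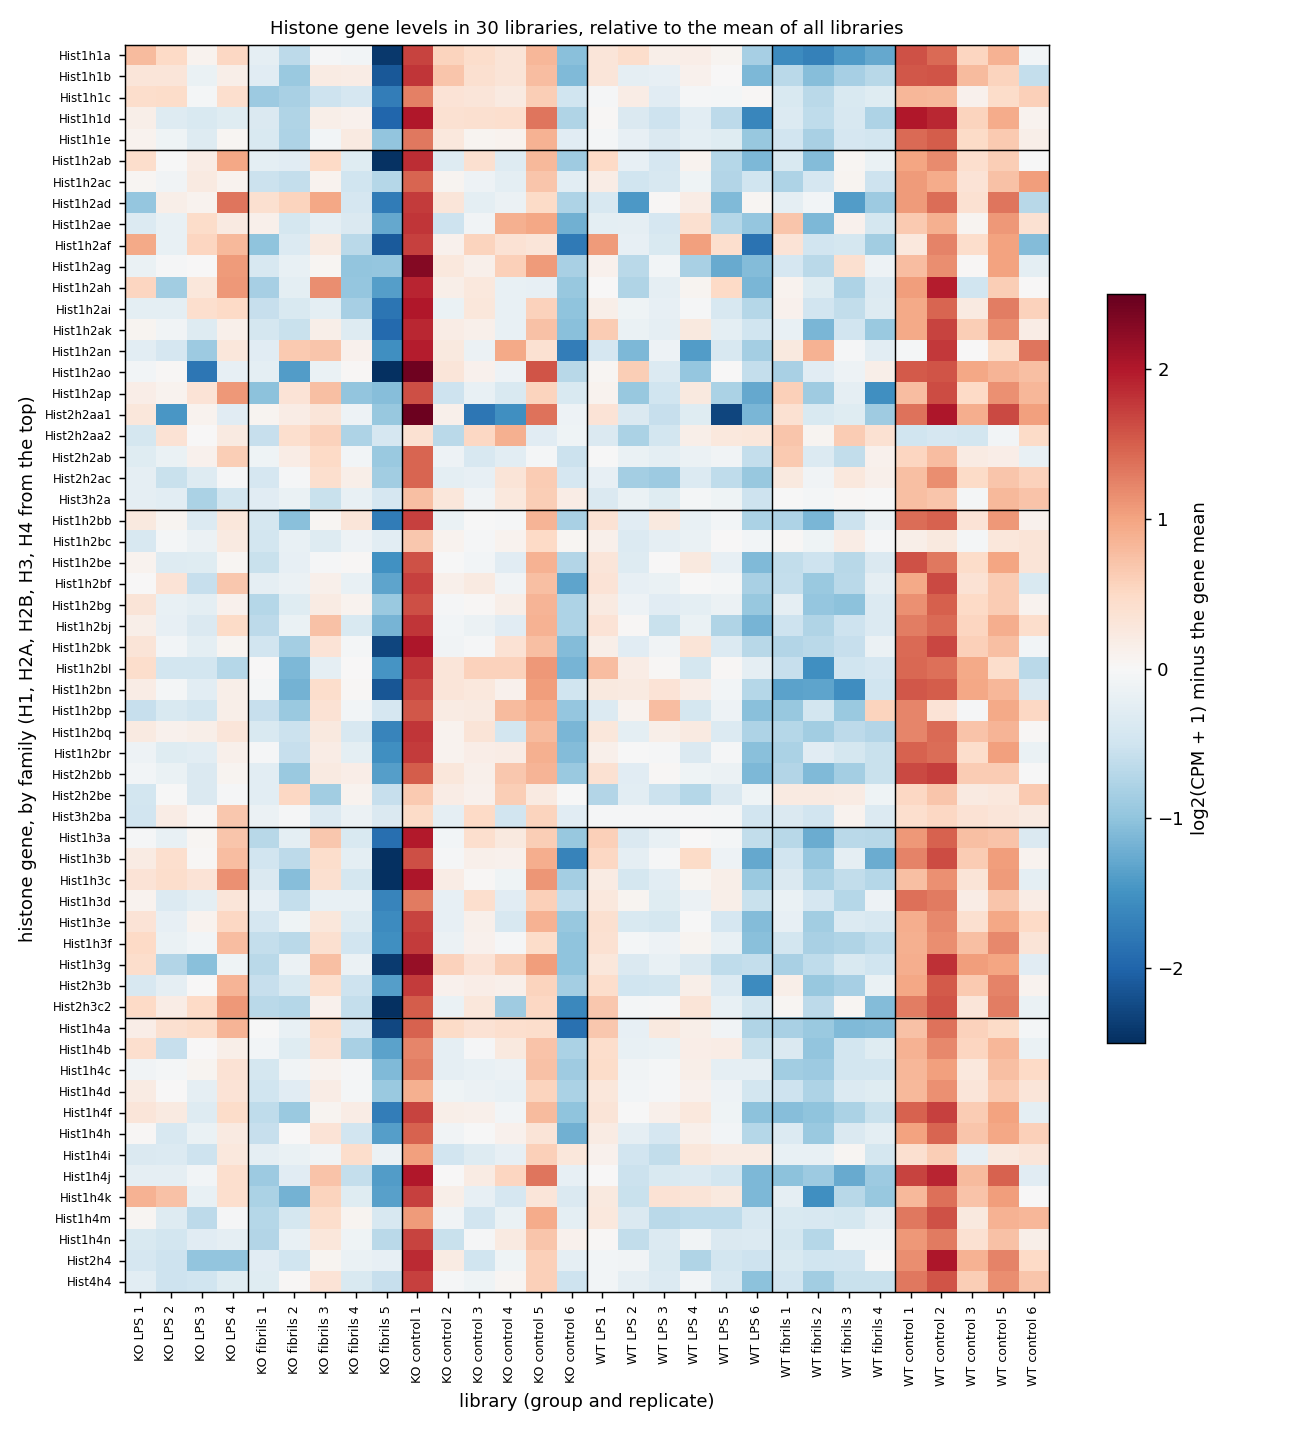
Level of each of the 59 tested genes in each of the 30 libraries, as log2(CPM + 1) minus the gene's mean over all libraries, with genes by family and libraries by group. KO control replicate 1, which has the highest histone sum (3985 CPM), and KO fibril replicate 5, which has the lowest (542.6 CPM), stand out within their groups.

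Genotype alone called none of these genes under any treatment. Between KO and WT controls the median was -0.40, and 55 of the 59 values were below 0. The median was -0.79 without KO control replicate 1, -0.23 without KO control replicate 6, -0.24 without WT control replicate 2 and -1.02 without the 4 libraries richest in noncoding RNA. Those 4 were KO control replicate 1, WT control replicates 5 and 6 and WT LPS replicate 6, so KO control replicate 1 is left out there too. In the reported fit none of the 59 genes was called, where 0.321% of all genes were (edgeR quasi-likelihood test). Of the 59 genes 5 (8.47%) had an unadjusted p under 0.05, near the 7.27% of all genes. They were Hist1h4d, Hist1h4h, Hist1h4m, Hist2h4 and Hist4h4. Without KO control replicate 1, whose histone sum was the highest of all, 2 were called: Hist2h4 (-1.29, adjusted p = 0.00856) and Hist4h4 (-1.15, adjusted p = 0.0136). By DESeq2 on all libraries none was called.

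After LPS the median of KO over WT was 0.29 and none was called, where 1.73% of all genes were. The median was 0.17 without KO LPS replicate 4 or WT LPS replicate 6. Hist1h2ag and Hist1h2ap (3.39% of the 59 genes) had an unadjusted p under 0.05, against 17.2% of all genes. After fibrils the median was 0.19 and none was called, where 8.94% of all genes were, and 3.39% of the 59 genes, Hist1h1a and Hist1h2bc, had an unadjusted p under 0.05, against 24.7% of all genes. Of the 27 non-microglial markers 17 were higher in KO than in WT fibril libraries. With their mean level as a covariate the median turned to -0.41. It was also below 0 with a surrogate variable (-0.17) and without KO fibril replicate 3 (-0.065), so no direction is given for this comparison. Hist1h1a had 18, 13, 20.7, 20.1 and 3.18 CPM in KO fibril libraries, against 6.46, 5.92, 7.29 and 8.19 CPM in WT fibril libraries. KO fibril replicate 5 was below all WT values and the other 4 above them, and the log2 fold change was 1.11 ± 0.44 (edgeR adjusted p = 0.11). It was called without KO fibril replicate 5 and by DESeq2 (1.15, adjusted p = 0.0489).

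The test of whether the treatment responses differed between the genotypes called none of the 59 genes, and none of all 14346 (0%). The difference of the LPS response, KO minus WT, had a median of 0.65 over the 59 genes, and that of the fibril response 0.62. The first was 1.08 without KO control replicate 1 and 1.19 without the 4 libraries richest in noncoding RNA. The fibril median ran from 0.14, with the marker level as a covariate, to 1.27 without those 4 libraries, and was 1.01 without KO control replicate 1, 0.37 without KO fibril replicate 3 and 0.41 without WT control replicate 2. Unadjusted p was under 0.05 for 3 and 8 of the 59 genes (5.08% and 13.6%), and for 4.18% and 11.6% of all genes. The 3 were Hist1h2ac, Hist1h2ap and Hist1h4m. So the larger count of calls in WT than in KO cells is not shown to be a difference between the genotypes. Without the 4 libraries richest in noncoding RNA, an alternative chosen after seeing the data, the fibril response difference was called for Hist1h1a (2.07), Hist2h4 (1.67) and Hist4h4 (1.83), with edgeR adjusted p of 0.0464, 0.0297 and 0.0151. Those 4 libraries include KO control replicate 1. Leaving out any 1 library alone called none of the 59 genes for this difference.

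Genes were also grouped by the end of the annotated transcript and by place in the genome. With fibrils in WT cells 11 of 17 genes without the motif, 15 of 22 whose annotated transcript ends within 100 bases of it and 17 of 20 whose transcript runs further were called, with medians of -1.52, -1.53 and -1.45. By place, 14 of 20 genes at chr13:21715763-22043676 and 22 of 27 at chr13:23531050-23934851 were called, as were 5 of 9 Hist2 genes at chr3:96219865-96270132. Among the 18 genes with at least 80% unique reads 13 were called, with a median of -1.67, against 30 of 41 of the others, with a median of -1.48.

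Genes of DNA replication, a list set beside the histone genes, were lower after fibrils. Of 28 S phase and DNA replication genes 26 fell with fibrils in WT cells and 22 in KO cells, where 15.6% and 11.5% of all genes fell. Lig1, a DNA ligase gene (-1.45 ± 0.24 in WT and -0.9998 ± 0.21 in KO), and E2f1, whose product turns on S phase genes (-0.70 and -0.44), were among the 3 of smallest p in both, beside Pola1, a polymerase subunit gene, in WT (-1.41) and Gins2, a helicase subunit gene, in KO cells (-0.85). With LPS none was called in WT cells, where Cdt1 (0.37) and the replication clamp gene Pcna (0.30) had the smallest p. In KO cells Pcna rose (0.59 ± 0.15, edgeR adjusted p = 0.00736). Their summed level was 871 ± 12.5 CPM after fibrils (SD, n = 4) and 1438 ± 97.3 after LPS (SD, n = 6), against 1390 ± 139 in controls (SD, n = 5), all in WT cells. In KO cells it was 863 ± 211 after fibrils (SD, n = 5) and 1693 ± 65.0 after LPS (SD, n = 4), against 1397 ± 314 CPM in controls (SD, n = 6).

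Of 16 mitosis genes, 13 fell with fibrils in WT cells and 6 in KO cells, against the same 15.6% and 11.5% of all genes. Aurkb (-1.52 in WT, -1.15 in KO) and Plk1 (-1.70 and -1.33), both mitotic kinase genes, were among the 3 of smallest p in each. With LPS none was called in WT cells, and the proliferation marker Mki67 rose in KO cells (1.02 ± 0.32, edgeR adjusted p = 0.0306). The ratio of the histone sum to the S phase sum was lower after LPS and after fibrils in WT cells. It was 0.835 ± 0.117 in WT LPS libraries (SD, n = 6) and 1.74 ± 0.428 in WT controls (SD, n = 5), with a highest of 1.03 and a lowest of 1.25. In KO cells it was 0.835 ± 0.104 after LPS (SD, n = 4) and 1.33 ± 0.685 in controls (SD, n = 6), with overlap. After fibrils it was 1.13 ± 0.124 in WT cells (SD, n = 4), with a highest of 1.22, also below every WT control. In KO cells it was 1.21 ± 0.257 after fibrils (SD, n = 5), and its range overlapped that of KO controls.

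A list of 11 other histone genes, called replication-independent here, was measured beside the replication-dependent ones. It includes Cenpa and H2afx, and independence from the cell cycle was not tested for any of its genes. H3f3b, which encodes variant H3.3, rose with LPS in WT cells (1.24 ± 0.16, edgeR adjusted p = 1.3e-06) and in KO cells (0.88 ± 0.17, adjusted p = 0.000313). It was the 1 of 11 such genes called there, where 15.1% (WT) and 13.7% (KO) of all genes were called. It was lower in KO than in WT cells after LPS (-0.73 ± 0.17, edgeR adjusted p = 0.0272), a call lost in 4 alternatives. The sum of the 11 genes was 2043 ± 147 CPM in WT LPS libraries and 1475 ± 91.7 CPM in WT controls, with no overlap. H3f3b, which is part of this sum, was 950 ± 123 CPM in WT LPS libraries and 401 ± 90.6 CPM in WT controls. The higher sum is therefore not shown to be a rise of the list as a whole. With fibrils in WT cells 6 of the 11 fell and 2 rose, where 15.6% of all genes fell and 13.8% rose. H2afv (-0.91), the centromere variant gene Cenpa (-1.34) and H2afy2 (-2.36) had the smallest p, and the sum of all 11 genes was 1.4% higher than in controls, with overlap. In KO cells 3 fell with fibrils, where 11.5% of all genes fell: H2afv (-0.95), Cenpa (-1.44) and H2afz (-0.56).

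Of 24 factors that transcribe, process or degrade histone mRNA, 5 were called with LPS in WT cells and 4 in KO cells. These shares are near those of all genes called in either direction, 15.1% in WT and 13.7% in KO cells. In WT cells Casp8ap2 (-0.60 ± 0.08), a component of the histone locus body, Npat (-0.36 ± 0.09), which activates histone gene transcription, Lsm11 (-0.35), a subunit of the small nuclear ribonucleoprotein that cuts the transcript, and Lsm1 (-0.30), a decay factor, fell. Nfya, a subunit of the factor that binds CCAAT, rose (0.40). In KO cells Casp8ap2 (-0.51 ± 0.09), Npat (-0.37), the cap-binding gene Ncbp2 (-0.45) and the decay helicase gene Upf1 (-0.38) fell. The edgeR adjusted p of Casp8ap2 was 5.25e-06 in WT and 0.000153 in KO cells, and its calls held under all alternatives run.

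With fibrils 5 of the 24 factors were called in WT and 6 in KO cells, where 29.4% and 23.7% of all genes were. Ccne1 (-1.04), Pou2f1 (-0.56), which binds the octamer, and Ccne2 (-1.24) fell in WT cells, and the processing factors Cpsf2 (0.40) and Srrt (0.22) rose. In KO cells Npat (-0.38), Zfp473 (-1.12) and Pou2f1 (-0.47) fell, and Srrt (0.42), Cpsf2 (0.26) and Hinfp (0.50), whose product activates H4 genes, rose. Of 13 histone chaperone genes Asf1b (-1.22), Chaf1a (-1.36), Chaf1b (-1.05) and Rbbp7 (-0.25) fell with fibrils in WT cells and Nap1l4 (0.32) rose. Of all genes 15.6% fell and 13.8% rose there. In KO cells Chaf1b (-0.96), Nasp (-0.29), Chaf1a (-0.80) and Asf1b (-0.68) fell, and Nap1l4 (0.40) and Ipo4 (0.52) rose. Of all genes 11.5% fell and 12.2% rose in KO cells. No chaperone gene was called with LPS by edgeR in either genotype. Between KO and WT cells, the processing factor gene Sympk was lower after LPS (-0.51 ± 0.09, edgeR adjusted p = 0.00566) and Pcna was lower after fibrils (-0.53 ± 0.16, adjusted p = 0.0355). Of 7 noncoding RNAs made without a poly(A) tail, Rn7s1 (3.83) and Rn7s2 (3.67) rose with fibrils in WT cells, where 13.8% of all genes rose. None was called in the other 3 comparisons with controls. In each of these lists, genes beyond the 3 of smallest p were named after their values were seen.

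**Figure D5:**
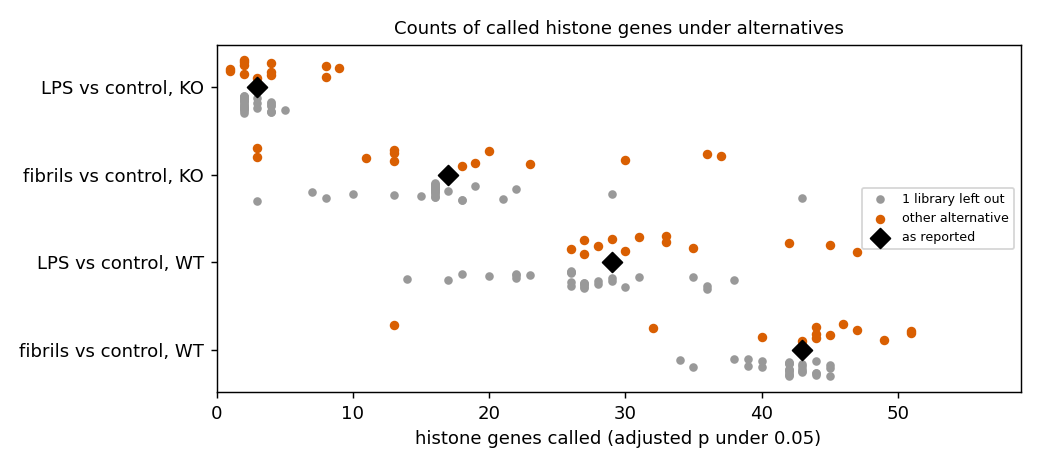
Number of the 59 replication-dependent histone genes called under each processing alternative in the 4 comparisons of a treatment with its control. Counts for fibrils in KO cells ranged from 3 to 43, around the 17 reported.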

How the data were processed

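RNA from 30 libraries of primary microglia in 6 groups was sequenced after ribosomal RNA depletion, in single-end reads of 100 bases, per the labels' protocols. CASAVA 1.7.1, STAR 2.4.2a and the build mm10 are named in the submitters' processing notes. The sources used here do not name the counting program. The authors deposited whole-number values per Ensembl transcript with no normalization, which were taken as estimated counts rounded before deposit, since overlapping isoforms of a gene each hold a share of its counts. Of 94647 transcripts, 91320 were matched to GENCODE M21 and summed per gene. The other 3327 held 0.779 to 0.891% of a library's counts and were left out, as were 3 histone pseudogenes.

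Genes passing edgeR's filterByExpr were scaled by TMM (factors 0.827 to 1.142). They were fitted in 1 quasi-likelihood model over all 6 groups (residual degrees of freedom 24), with Benjamini-Hochberg adjustment over 14346 genes and a threshold of 0.05. An SE is the log2 fold change divided by the square root of F. CPM is per 1000000 counts of the effective library size, which is the total over the tested genes multiplied by the library's TMM factor. All CPM values, sums and overlaps given here therefore carry this scaling. Sums of CPM over lists were not tested. The fit was tested on simulated data made from these libraries' means. It recovered 4-fold changes nearly fully but 2-fold changes only in part, and the pass mark for 2-fold changes was lowered after that was seen, so a gene not called may still have changed.

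The genes and lists were chosen with earlier results of these data known. Hist1h1c and Hist1h1e were named, with every replication-dependent histone gene called in a comparison, the highest gene per length in each family, and per other list up to 3 called genes of smallest p (the 2 of smallest p where none was called). Alternatives were other scalings and filters, DESeq2, limma-voom, a surrogate variable (sva), fits of only the groups compared, replicate blocks, unique reads and leaving out each library in turn, plus 2 chosen after seeing the data. Tools were R 4.3.3, edgeR 4.0.16, limma 3.58.1, DESeq2 1.42.0, sva 3.50.0, Python 3.11.15, pandas 2.3.3, numpy 2.4.6 and matplotlib 3.10.9. The labels mention sequencing in pools of 4 samples, without saying which library was in which pool, so pool and group cannot be told apart.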

Additional observations from a re-analysis of the deposited data

Results flagged for a closer look

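In 27 of 336 groups of values examined (56 genes or sums, in groups of 4 to 6 libraries), the highest or lowest library stood apart from the rest of its group by Dixon's criterion, which chance meets in about 1 in 20 groups. Values are log2 CPM, with the nearest library of the same group in brackets.

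KO fibril replicate 5 was lowest for Hist1h1a at 1.71 (3.71), Hist1h2ao at -3.42 (1.18), Hist1h2bf at 1.91 (3.18), Hist1h3d at 1.29 (2.61) and Hist2h3c2 at 1.05 (3.67). KO fibril replicate 3 was highest for Hist1h2ac at 2.57 (1.87).

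Among KO LPS libraries, replicate 3 was lowest for Hist1h1c at 6.39 (6.88) and Hist1h2ao at 0.57 (2.66). Replicate 1 was highest for Hist1h1d at 5.16 (4.69), and replicate 4 was highest for Hist1h2ag at 3.79 (2.62) and Hist1h3c at 5.37 (4.66).

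Among KO controls, replicate 6 was lowest for Hist1h4a at 2.86 (5.24) and replicate 1 was highest for Hist1h4k at 5.67 (4.22).

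WT LPS replicate 6 was lowest for Hist1h1a at 3.53 (4.47), Hist1h1b at 2.76 (3.74), Hist1h1e at 4.01 (4.62), Hist1h4f at 4.19 (5.14) and Hist4h4 at 1.99 (2.72). WT LPS replicate 1 was highest for Hist1h4m at 5.46 (4.82).

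WT fibril replicate 2 was lowest for Hist1h1e at 4.16 (4.51), Hist1h2bl at 0.67 (1.99), Hist1h3a at 2.37 (2.98) and Hist1h4h at 5.08 (5.66). It was also lowest for the sum of the H1 genes at 6.73 (7.02) and the sum of all replication-dependent genes at 9.68 (9.99). WT fibril replicate 4 was lowest for Hist2h2be at 2.34 (2.69), and WT control replicate 3 was lowest for Hist3h2a at 5.21 (5.97).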

How the results depend on the processing

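No called replication-dependent histone gene changed direction under the 43 alternatives. Called under all of them were 13 genes with fibrils in WT cells, 3 with fibrils in KO cells (Hist1h1c, Hist1h2bc and Hist3h2a), 13 with LPS in WT cells and 1 with LPS in KO cells (Hist3h2a). With fibrils in WT cells 1 gene not called in the reported fit was called higher with only the groups compared, beside 50 lower. The replicate block within genotype also called 1 gene higher there, beside 46 lower. Counts of histone genes called moved by over 1.5 times as follows. With fibrils in KO cells, reported as 17, the count was 30 by DESeq2, 11 by limma-voom and 3 in a fit of only the groups compared. It was also 3 without the 4 libraries rich in noncoding RNA, which include KO control replicate 1. With LPS in WT cells, reported as 29, it was 47 with library size as the only scaling and 45 with only the groups compared. With LPS in KO cells, reported as 3, it was 8 with library size, 1 by limma-voom and 1 with only the groups compared. With fibrils in WT cells, reported as 43, it was 13 with the score of non-microglial markers as a covariate. Among the 18 genes with at least 80% unique reads it was 13 with fibrils in WT cells, 6 with fibrils in KO cells and 10 with LPS in WT cells, fewer genes being tested. Between genotypes, DESeq2 called 1 gene after fibrils, and leaving out the 4 libraries called 2 in controls and 3 for the difference of the fibril response. Except where the number of genes tested shows it, the cause was not tested.

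Scaling by library size alone shifted the all-gene median by -0.20 with fibrils and -0.21 with LPS in WT cells, and by -0.10 and -0.17 in KO cells. The histone medians relative to all genes were then -1.48, -1.08, -0.87 and -0.42.

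Leaving out each library in turn gave 34 to 45 calls with fibrils in WT cells, 3 to 43 with fibrils in KO cells, 14 to 38 with LPS in WT cells and 2 to 5 with LPS in KO cells. It gave 0 to 2 between genotypes in controls, 0 to 0 after LPS, 0 to 1 after fibrils, and 0 to 0 for both response differences.

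Same-numbered libraries of a genotype did not deviate together as a set, with a median correlation of 0.004 against 0.012 for unlike numbers. Of the same-numbered pairs 10 of 25 correlated over 0.1 (range -0.417 to 0.655), against 35 of 123 others. Some pairs did deviate together, such as WT control and WT LPS replicates 6 (0.655). The numbers were not taken as pairs, though shared origin of some libraries is not excluded. With the number as a replicate block, 37 genes were called with fibrils in KO cells, 9 with LPS in KO cells and 1 between genotypes after fibrils (Hist1h1a, 1.15, edgeR adjusted p = 0.0217). The block also put the median between genotypes after LPS at 0.0582. With the block within genotype, 36 and 8 were called with fibrils and LPS in KO cells.

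With the marker score as a covariate, astrocyte markers that enter the score turned sign: Sox9 (0.29), Slc1a3 (0.0617) and Aqp4 (0.47) with fibrils in WT cells, and Aqp4 (-0.20) between genotypes after fibrils. Depth limits the lowest genes most, and shared reads limit single H2A, H2B and H3 genes and some H4 genes, such as Hist1h4m and Hist1h4n.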
